A study of Mus musculus with 8 samples.

Results

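The probe sets described here measure 10 genes of the fibroblast growth factor (FGF) pathway in macrophages sorted from the mouse mammary gland. The genes are the receptors Fgfr1, Fgfr2 and Fgfr3, the ligands Fgf1, Fgf2, Fgf7 and Fgf10, and the feedback genes Dusp6, Spry2 and Spry4. Of the 34945 probe sets on the array that carry exactly 1 gene symbol, 22 belong to these 10 genes. All 3 probe sets of Fgfr1 are described, and for each other gene the probe set with the highest mean signal over the arrays, which gives 12 probe sets. The other 10 probe sets had signals between 3.8 and 194.6 and appear only where they bear on a result.

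FGFs are secreted ligands that bind receptor tyrosine kinases together with heparan sulfate on the cell surface. The active receptor recruits the adaptor FRS2 and, through RAS, starts the ERK kinase cascade. ERK signalling switches on its own inhibitors: DUSP6 removes the activating phosphates from ERK, and the Sprouty proteins damp the signal between the receptor and RAS. In the mammary gland, stromal cells are known to make FGF7 and FGF10, which act on the FGFR2 of the epithelium.

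The MMTV-iFGFR1 mice of this study carry an inducible form of FGFR1 driven in mammary epithelial cells by the promoter of the mouse mammary tumour virus. An injected dimerizer joins the receptor molecules and so activates them. Transgenic females and littermates without the transgene, all inbred FVB and aged 6 weeks when injected, received dimerizer for 48 hours or for 4 weeks, so that all 4 groups carry the agent and differ in genotype and time. Cells that stained for Cd11b, which neutrophils and monocytes also carry, were sorted from digested glands, and each array held the RNA of 3 pooled mice. Each of the 4 groups (control or transgenic, 48 hours or 4 weeks) had 2 pools, so 8 arrays were compared. For transgenic 4 weeks pool 2 the labels conflict: the description names non-transgenic mice, and the title, source and genotype fields name transgenic ones. It is treated here as transgenic.

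Array medians ran from 96.4 to 126.9, and they serve below as the mark between brighter and dimmer probe sets. Of 8 macrophage genes, 7 lay above the median on all 8 arrays, and Itgam, which encodes Cd11b, lay above it on 7. All 9 fibroblast genes measured also lay above the median on all 8 arrays. Their summed signal was 38899 in control 48 hours pool 1 and between 57969.5 and 87114 on the others. The summed signal of 10 genes of luminal epithelium was 2812 and 2977 in the control 48 hours pools and between 4165 and 10018 on the others. Beta-actin probes at the 3′ end exceeded those at the 5′ end, a ratio that rises with shorter RNA, by 37.0-fold in control 4 weeks pool 2 and by 6.84-fold to 13.9-fold on the others. In a sorted pool, fewer cells of a type and less RNA per cell cannot be told apart. Nothing in the labels says more of how the pools arose than that each holds 3 mice, so p-values measure the spread between pools.

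**Figure D1:**
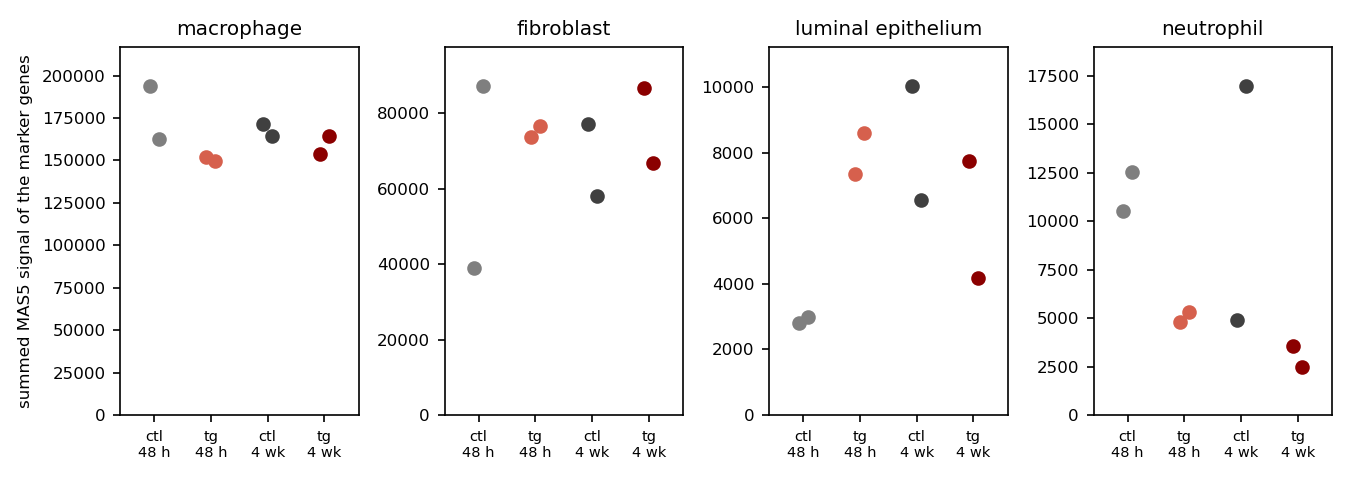
Summed signal of marker genes of 4 cell types on each array (points, linear axes from 0), for control (ctl) and transgenic (tg) pools at 48 hours (48 h) and 4 weeks (4 wk). Fibroblast signal was lowest in control 48 hours pool 1, at 38899, and luminal signal was lowest in both control 48 hours pools, at 2812 and 2977.

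The receptors come first. Fgfr1 is the receptor whose inducible form the transgene encodes, and mesenchymal cells and fibroblasts express it widely. Its brightest probe set, 1424050_s_at, lay above the array's median on all 8 arrays. Its signal was 1132 and 1131 in the control 48 hours pools and 1234 and 1150 in the transgenic ones. At 4 weeks it was 1853 and 580.8 in the control pools and 1319 and 1235 in the transgenic ones. The 2 control pools of 4 weeks thus enclosed every other array, and the low one was pool 2, whose actin ratio was 37.0-fold.

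The log2 difference between transgenic and control pools for this probe set was 0.07 (SE 0.41, 95% interval −0.83 to 0.97) at 48 hours. The difference at 4 weeks was 0.28 (SE 0.41, 95% interval −0.62 to 1.18). These are differences on the log2 scale after an offset of 30.8 signal units, from limma's fit over all 34945 probe sets. The value at 4 weeks turned on the control pools: it was 1.10 without control 4 weeks pool 1 and −0.53 without pool 2. Adding the actin ratio to the model gave −0.46, and −0.26 at 48 hours. The part of RNA length in this probe set's values was not tested further.

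A second Fgfr1 probe set, 1436551_at, also lay above the median on all 8 arrays. Its signal was 262.2 and 314.7 in the control 48 hours pools, and 451.7 and 398.7 in the transgenic ones. At 4 weeks the signal was 406.3 and 451.9 in control pools and 492.9 and 377.1 in transgenic pools. The control 48 hours pools were therefore the 2 lowest of the 8 arrays, and at 4 weeks the genotypes overlapped. The log2 difference was 0.52 (95% interval −0.18 to 1.21) at 48 hours, with adjusted p = 0.966 in limma, and 0.01 (95% interval −0.69 to 0.71) at 4 weeks. The latter was −0.17 without transgenic 4 weeks pool 1.

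The third probe set of Fgfr1, 1425911_a_at, lay above the median on 5 arrays and below it on 3. It gave 99.7 and 168.4 in control pools and 142.6 and 91.0 in transgenic pools at 48 hours. The signal at 4 weeks was 158.4 and 19.0 in control pools and 205.8 and 107.0 in transgenic pools. As with 1424050_s_at, its lowest array was control 4 weeks pool 2. Transgenic minus control, the log2 difference was −0.15 (95% interval −1.65 to 1.35) at 48 hours and 0.90 (95% interval −0.60 to 2.39) at 4 weeks. Without control 4 weeks pool 2 the latter was −0.067, and without control 48 hours pool 2 the former was 0.16. Over the 8 arrays these 2 probe sets had a Pearson correlation of 0.86 on the log2 scale. The correlation of 1436551_at with 1424050_s_at was −0.06 and with 1425911_a_at −0.05. Control 4 weeks pool 2 was the lowest array for both 1424050_s_at (580.8) and 1425911_a_at (19.0), and gave 451.9 for 1436551_at. The correlations without that array were not computed, so a pattern shared beyond it was not tested. All 3 probe sets share the same RNA and scaling. The ending _s_at marks probes that can match more than one transcript, and _a_at marks probes that match several transcripts of one gene. The transgene's promoter works in epithelial cells, and genes of luminal epithelium had signal in these pools. Whether the Fgfr1 probe sets detect the transgene was not tested, so their signal is no check of the genotype labels.

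Fgfr2 encodes the receptor for FGF7 and FGF10, which epithelial cells carry. Its brightest probe set, 1433489_s_at, lay above the median on all 8 arrays. It gave 723.4 and 423.4 in control pools and 615.1 and 592.1 in transgenic pools at 48 hours. At 4 weeks it gave 453.4 and 501.0 in control pools and 562.1 and 416.8 in transgenic pools. At both times the genotypes overlapped. On the log2 scale the difference was 0.12 (95% interval −0.59 to 0.83) at 48 hours and 0.02 (95% interval −0.69 to 0.73) at 4 weeks. It was −0.25 at 48 hours without control pool 2 and −0.18 at 4 weeks without transgenic pool 1. The luminal marker sum was 2812 and 2977 in control pools and 7351.5 and 8609 in transgenic pools at 48 hours. The part of epithelial cells in the Fgfr2 values was not tested. Of the other probe sets of the gene, 1443211_at had a log2 difference of −0.82 at 48 hours, at signals of 37.1 and 37.9 in transgenic and 67.4 and 117.5 in control pools.

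Fgfr3 encodes a receptor best known from growing cartilage. Its probe set 1421841_at gave 6.8 and 91.1 in control pools and 45.0 and 127.2 in transgenic pools at 48 hours. Its signal at 4 weeks was 88.8 and 57.3 in control pools and 53.2 and 84.7 in transgenic pools. Only transgenic 48 hours pool 2 lay above its array's median, so the probe set was dim almost throughout. The log2 difference was 0.69 (95% interval −0.79 to 2.17) at 48 hours and −0.06 (95% interval −1.54 to 1.42) at 4 weeks. Without control 48 hours pool 1, where the signal was 6.8, the former was −0.16, and without transgenic 4 weeks pool 1 the latter was 0.17. Without detection calls, a low signal here cannot be told apart from absence.

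The ligands were dimmer than the array's median on most arrays, with Fgf7 as the exception. Fgf7, the keratinocyte growth factor of stromal cells, lay above the median on all 8 arrays with probe set 1438405_at. It gave 146.7 and 149.0 in control pools and 256.8 and 171.7 in transgenic pools at 48 hours. At 4 weeks the signal was 197.5 and 202.6 in control pools and 205.6 and 168.6 in transgenic pools. The control 48 hours pools were the 2 lowest arrays. Transgenic minus control, the log2 difference was 0.43 (95% interval −0.51 to 1.38) at 48 hours and −0.09 (95% interval −1.04 to 0.86) at 4 weeks. The former was 0.18 without transgenic 48 hours pool 1 and 0.69 without transgenic 48 hours pool 2, and the latter 0.034 without transgenic 4 weeks pool 2. The other Fgf7 probe set, 1422243_at, had a log2 difference of −0.32 at 48 hours, so the sign at this time depended on the probe set.

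Fgf10 encodes a stromal ligand that drives the branching of epithelial organs. Its only probe set, 1420690_at, lay below the median on all 8 arrays. Its signal was 96.8 and 39.4 in control pools and 10.9 and 5.0 in transgenic pools at 48 hours. The signal at 4 weeks was 17.5 and 25.8 in control pools and 3.6 and 5.4 in transgenic pools. All 4 transgenic pools were lower than all 4 control pools, and within each genotype the 48 hours and 4 weeks pools overlapped in the transgenic but not in the control mice. On the log2 scale the difference was −1.29 (SE 0.41, 95% interval −2.20 to −0.39) at 48 hours and −0.57 (SE 0.41, 95% interval −1.47 to 0.34) at 4 weeks.

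Over both times the Fgf10 log2 difference was −0.93 (SE 0.30, 95% interval −1.58 to −0.28). Its p was 0.00886 before and 0.939 after Benjamini-Hochberg adjustment in limma, so it did not pass. Over all probe sets tested, 1.82% had all 4 transgenic pools below all 4 control pools. The signals are dim and the size depended on the offset: the difference at 48 hours was −2.90 with an offset of 1 and −0.58 with an offset of 108.1. It was −0.86 without control 48 hours pool 1 and −1.72 without control 48 hours pool 2. The fibroblast marker sum, from cells known to make this ligand, overlapped between the genotypes at both times. At 48 hours it was 38899 and 87114 in control pools and 73626 and 76621 in transgenic pools. At 4 weeks it was 77028 and 57969.5 in control pools and 86822.5 and 66689.7 in transgenic pools. Of the 9 fibroblast genes, 8 had a positive log2 difference at 48 hours and 7 at 4 weeks, with a median of 0.39 at each time. The part of fibroblasts in the Fgf10 values was not tested. The neutrophil marker sum of 7 genes, with 10539.5 and 12529 in control pools and 4816 and 5331 in transgenic pools at 48 hours and 4892 and 16958 against 3556 and 2500.3 at 4 weeks, was lower in transgenic pools at both times, and its part in the result was not tested.

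Fgf2, or basic FGF, is made by stromal and endothelial cells. Its only probe set, 1449826_a_at, lay below the median on all 8 arrays. It gave 55.8 and 46.0 in control pools and 80.3 and 61.1 in transgenic pools at 48 hours. Its signal at 4 weeks was 64.3 and 53.2 in control pools and 54.9 and 20.4 in transgenic pools. The transgenic pools lay above the control pools at 48 hours, and the genotypes overlapped at 4 weeks. The log2 difference was 0.31 (95% interval −0.83 to 1.45) at 48 hours and −0.43 (95% interval −1.57 to 0.71) at 4 weeks. The former ran from 0.17 without transgenic 48 hours pool 1 to 0.45 without transgenic 48 hours pool 2. The latter was −0.80 without transgenic 4 weeks pool 1 and −0.061 without transgenic 4 weeks pool 2.

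Fgf1, or acidic FGF, can bind all FGF receptors. Its brightest probe set, 1450869_at, gave 111.7 and 130.2 in control pools and 72.6 and 141.9 in transgenic pools at 48 hours. At 4 weeks the signal was 44.2 and 126.6 in control pools and 59.3 and 95.6 in transgenic pools. The genotypes overlapped at both times. Transgenic minus control, the log2 difference was −0.18 (95% interval −1.47 to 1.11) at 48 hours and −0.03 (95% interval −1.31 to 1.26) at 4 weeks. The former was 0.19 without transgenic 48 hours pool 1, and the latter 0.51 without control 4 weeks pool 2.

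The feedback genes are transcribed in response to ERK, which acts in part through ETS transcription factors that recognise a GGAA core. The 250 bases before the start of Dusp6 and Spry2 are printed because these 2 genes report the pathway's output and lay above the median on all 8 arrays. Those of Fgf10 are printed because it was the one member whose genotypes did not overlap at both times. The sequences are RefSeq's (build GRCm38.p6), 5′ to 3′ on the strand of the gene, with GGAA and its reverse complement in capitals. RefSeq's table of promoters matched 7 of the 10 genes.
Dusp6, chr10:99262981-99263230, plus strand: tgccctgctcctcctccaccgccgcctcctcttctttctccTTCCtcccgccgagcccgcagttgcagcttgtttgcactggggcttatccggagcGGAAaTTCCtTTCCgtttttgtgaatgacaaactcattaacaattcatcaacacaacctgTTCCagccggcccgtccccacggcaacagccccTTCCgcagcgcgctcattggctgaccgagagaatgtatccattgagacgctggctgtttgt
Spry2, chr14:105896820-105897069, minus strand: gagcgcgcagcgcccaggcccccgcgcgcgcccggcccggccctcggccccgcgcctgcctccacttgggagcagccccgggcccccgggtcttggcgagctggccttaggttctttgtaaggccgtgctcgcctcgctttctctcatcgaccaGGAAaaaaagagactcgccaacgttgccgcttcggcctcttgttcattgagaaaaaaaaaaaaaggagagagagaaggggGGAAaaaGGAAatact
Fgf10, chr13:118714449-118714698, plus strand: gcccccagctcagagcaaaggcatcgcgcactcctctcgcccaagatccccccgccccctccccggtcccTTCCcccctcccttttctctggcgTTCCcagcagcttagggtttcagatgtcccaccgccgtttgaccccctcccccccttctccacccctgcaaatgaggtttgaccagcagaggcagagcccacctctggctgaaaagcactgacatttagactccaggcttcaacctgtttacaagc
The core occurred 6 times before Dusp6, 3 times before Spry2 and 2 times before Fgf10, counting both strands, and it occurs in 93.4% of all 32851 promoters in windows of 250 bases. The longer ETS motif CCGGAA, which contains the core and is in 12% of all promoters, and the AP-1 motif TGANTCA, in 6.75%, were in none of the 3 windows. The G and C content was 56.4% before Dusp6, 62.4% before Spry2 and 61.2% before Fgf10, against a median of 52.4% over all promoters. A match of letters is a description of the sequence, and no measurement here bears on binding.

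Dusp6 encodes the phosphatase of ERK. Its only probe set, 1415834_at, had signals of 619.1 and 1113 in control pools and 1642 and 1226 in transgenic pools at 48 hours. The signal at 4 weeks was 1791 and 1098 in control pools and 1433 and 2576.5 in transgenic pools. The lowest array was control 48 hours pool 1, and the highest was transgenic 4 weeks pool 2. At 48 hours the genotypes did not overlap, by a gap of 1113 to 1226, and at 4 weeks they overlapped. On the log2 scale the difference was 0.75 (SE 0.37, 95% interval −0.06 to 1.56) at 48 hours and 0.45 (SE 0.37, 95% interval −0.36 to 1.25) at 4 weeks.

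Over both times the Dusp6 log2 difference was 0.60 (SE 0.25, 95% interval 0.05 to 1.14), with limma's unadjusted p = 0.0339 and adjusted p = 0.939. It did not pass. The difference at 48 hours was 0.34 without control 48 hours pool 1, which was also the array with the lowest fibroblast sum, and 1.16 without control 48 hours pool 2. That at 4 weeks was 0.10 without control 4 weeks pool 2 and 0.03 without transgenic 4 weeks pool 2.

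Spry2 encodes a Sprouty inhibitor of receptor tyrosine kinase signalling. Probe set 1436584_at gave 185.7 and 293.1 in control pools and 210.8 and 395.9 in transgenic pools at 48 hours. At 4 weeks it gave 324.0 and 220.4 in control pools and 280.0 and 348.8 in transgenic pools. The genotypes overlapped at both times. The log2 difference was 0.28 (95% interval −0.66 to 1.21) at 48 hours and 0.20 (95% interval −0.73 to 1.14) at 4 weeks. The former was −0.13 without transgenic 48 hours pool 2, and the latter −0.047 without control 4 weeks pool 2. The other Spry2 probe set, 1421656_at, had 55.9 and 14.9 in control pools and 107.0 and 138.3 in transgenic pools at 48 hours, without overlap. It had 103.1 and 111.5 in control pools and 43.6 and 29.7 in transgenic pools at 4 weeks, without overlap in the other direction. Its log2 differences were 1.28 (SE 0.55) and −1.04 (SE 0.55), and their change was −2.32 (SE 0.78), with limma's unadjusted p = 0.0124 and adjusted p = 0.98, so the 2 probe sets of this gene had different patterns and neither passed. The Pearson correlation of 1436584_at with Dusp6 over the 8 arrays was 0.57 on the log2 scale, for values that share each array's RNA and scaling.

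Spry4 encodes a further Sprouty protein. Its brightest probe set, 1440867_at, gave 135.2 and 30.6 in control pools and 105.5 and 188.2 in transgenic pools at 48 hours. Its signal at 4 weeks was 75.9 and 134.9 in control pools and 22.7 and 58.9 in transgenic pools. At 4 weeks both transgenic pools were below both control pools, and at 48 hours the genotypes overlapped. Transgenic minus control, the log2 difference was 0.78 (95% interval −0.64 to 2.19) at 48 hours and −0.94 (95% interval −2.36 to 0.48) at 4 weeks. The former was 0.058 without control 48 hours pool 2 and 1.49 without control 48 hours pool 1, and the latter ran from −1.31 without transgenic 4 weeks pool 2 to −0.57 without transgenic 4 weeks pool 1. The change between these differences was −1.72 (SE 0.91, 95% interval −3.72 to 0.29), with adjusted p = 0.98 in limma, so it was not shown to differ between the times. The other 3 probe sets of Spry4 had signals from 3.8 to 122.6.

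**Figure D2:**
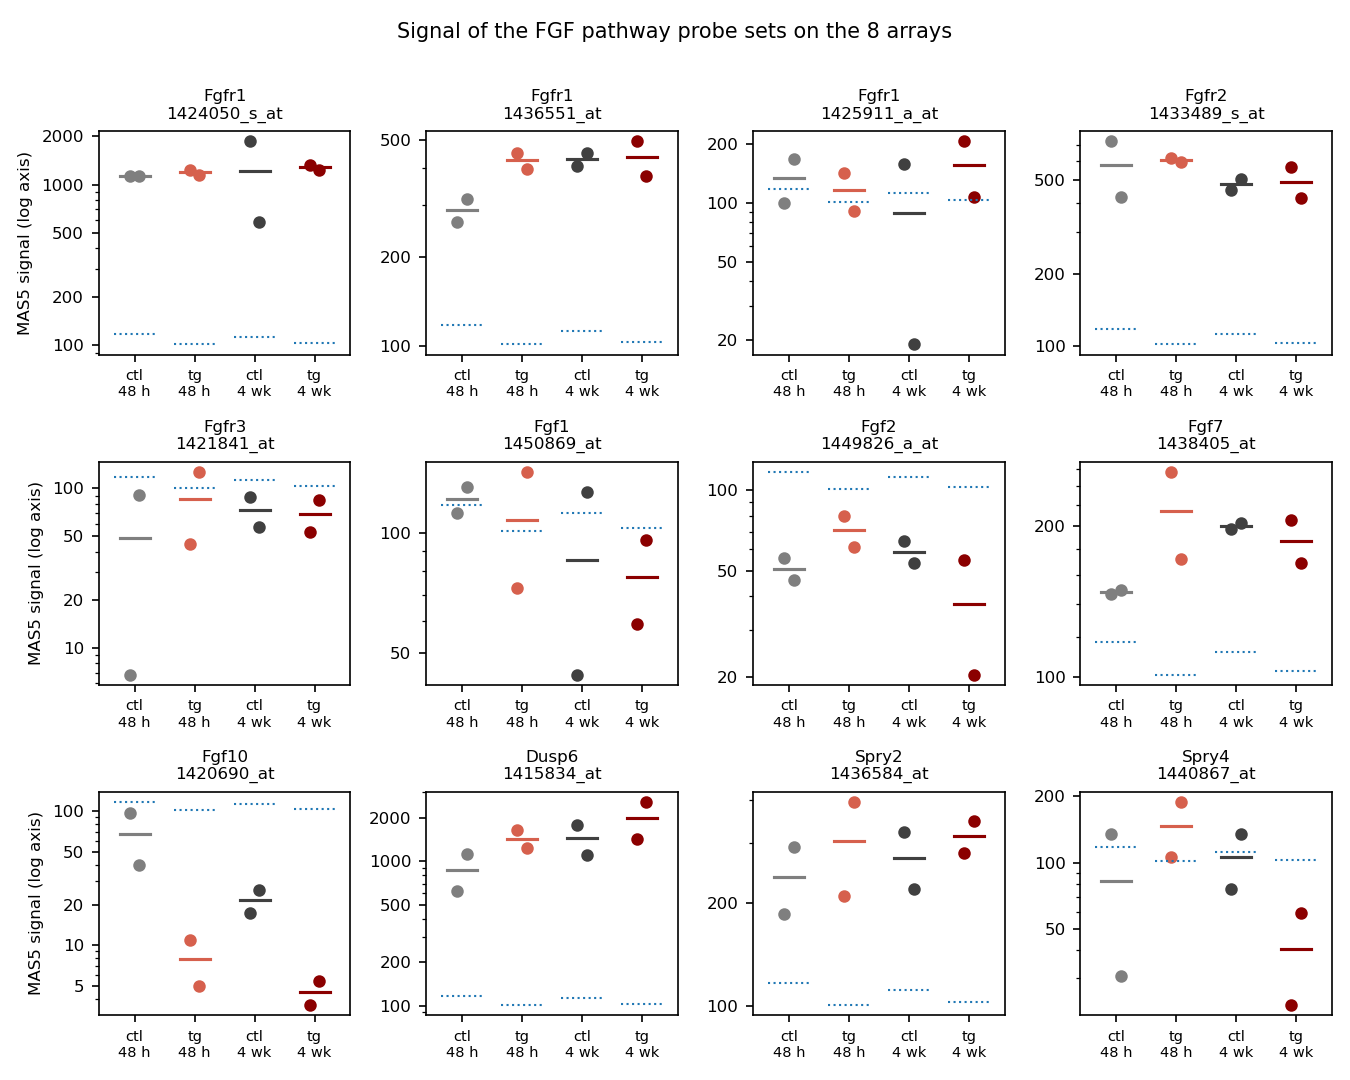
MAS5 signal of the 12 probe sets on the 8 arrays (points, log axes) for control (ctl) and transgenic (tg) pools at 48 hours (48 h) and 4 weeks (4 wk), with each group's mean (solid line) and the mean of its arrays' median signals (blue dotted line). Fgf10 stays under the dotted line, with the 4 transgenic pools between 3.6 and 10.9 and the control pools between 17.5 and 96.8.

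Across the 12 probe sets, 6 lay above the median on all 8 arrays, 4 on some arrays and 2 on none. At 48 hours 9 of the 12 log2 differences were positive, with a median of 0.29, against a median of −0.03 and 47.4% positive over all 34945 probe sets. At 4 weeks 6 were positive and 6 negative, with a median of −0.01, against −0.02 and 48.2% positive over all. The 12 values are not independent, since 3 belong to Fgfr1 and all share their arrays. Of the other 10 probe sets of these genes, only Fgfr2 1420847_a_at (0.18) and Spry2 1421656_at (1.28) had a positive difference at 48 hours. The share of positive values thus depended on which probe sets were described. The 48 hours median was lower with any of its 4 pools left out: 0.15 without transgenic pool 2 (9 positive), 0.19 without transgenic pool 1 (10 positive), 0.19 without control pool 2 (9 positive) and 0.21 without control pool 1 (7 positive).

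None of the 12 probe sets passed an adjusted p of 0.05 in limma at 48 hours or at 4 weeks, and 0% of all probe sets did so at either time. At an unadjusted p under 0.05, 1 of 12 passed at 48 hours, where 4.67% of all probe sets did. At 4 weeks 0 of 12 passed, against 5.16%. Over both times 2 of 12 passed, Fgf10 lower and Dusp6 higher, against 4.83%, and 0% of all probe sets had an adjusted p under 0.05. Members' adjusted p-values were 0.966 or higher at 48 hours, 0.968 or higher at 4 weeks and 0.939 or higher over both times.

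The standard errors of the differences at one time ran from 0.32 for Fgfr1 1436551_at to 0.68 for Fgfr1 1425911_a_at on the log2 scale. A p that misses the threshold here does not show that the genotypes are alike.

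**Figure D3:**
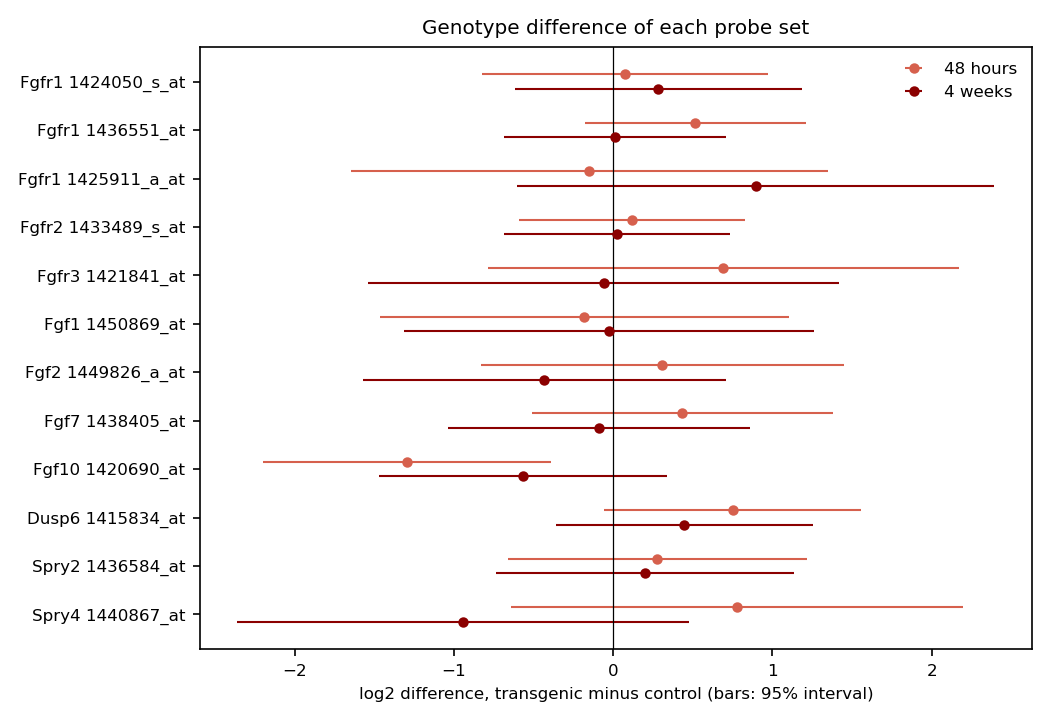
Log2 difference between transgenic and control pools of each probe set at 48 hours (light red) and 4 weeks (dark red), with the 95% interval of limma's fit. All intervals include 0 except that of Fgf10 at 48 hours, from −2.20 to −0.39, which did not pass after adjustment over all probe sets.

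The groups of 2 pools were also compared by whether they overlapped. At 48 hours both transgenic pools lay above both control pools for 5 of the 12 probe sets (2 of Fgfr1, Fgf2, Fgf7 and Dusp6), or 41.7%, where 15.4% of all probe sets did. They lay below for Fgf10 alone, where 19.1% of all did. At 4 weeks 0 of 12 were above, against 15% of all, and 2 of 12, Fgf10 and Spry4, were below, against 17.7%. The 5 differences at 48 hours ran from 0.07 for Fgfr1 1424050_s_at to 0.75 for Dusp6. Among the other 10 probe sets of these genes, Spry2 1421656_at lay above and Fgfr2 1443211_at below at 48 hours, and the rest overlapped. Fgfr3 1425796_a_at, Fgf1 1441042_at, Fgf7 1422243_at and Spry2 1421656_at lay below at 4 weeks, and the rest overlapped. The shares thus depended on which probe sets were described. Of the 12 probe sets, 5 had their lowest signal in control 48 hours pool 1: Fgfr1 1436551_at, Fgfr3, Fgf7, Dusp6 and Spry2. The same pool was the highest for 2, and how often it is lowest over all probe sets was not counted. That pool also had the lowest fibroblast sum, 38899, while the other control 48 hours pool had the highest, 87114. The transgenic 48 hours pools lay between them, at 73626 and 76621, so this sum did not separate the genotypes. Of the 9 fibroblast genes, 8 had a positive log2 difference at 48 hours, with a median of 0.39. The luminal sum differed in the same comparison: it was 2812 and 2977 in the control and 7351.5 and 8609 in the transgenic pools, with 8 of 10 genes positive and a median of 1.60. The neutrophil genes differed the other way, with 6 of 7 negative and a median of −0.68. The part of these cell types in the members' values was not tested.

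The 4 group means of each probe set were put in order, and 36 pairs of neighbouring groups were compared. In 6 of these pairs, or 16.7%, the pools of the lower group all lay below those of the higher one, which is near the 17.5% of such pairs over all probe sets. For Dusp6, both Fgfr1 probe sets above the median and Fgf7, the control 48 hours group had the lowest mean and stood clear of the group next in mean. The 3 groups above it overlapped their neighbours. This lowest and clear place, singled out after the values were seen, holds for 4 of the 12 and for 5.49% of all probe sets, and the 4 share their arrays. It was not clear of every group: control 4 weeks pool 2 lay below both control 48 hours pools for Fgfr1 1424050_s_at (580.8 against 1132 and 1131). For Dusp6 it lay below control 48 hours pool 2 (1098 against 1113). For Fgf10 the order from low to high was transgenic 4 weeks, transgenic 48 hours, control 4 weeks and control 48 hours, and only the first pair overlapped.

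The comparison of the 2 times within a genotype uses the same control and transgenic pools as the comparisons above. In control pools 0 of 12 members passed in limma from 48 hours to 4 weeks, 0 had an unadjusted p under 0.05 against 6.47% of all, and 0.00286% of all probe sets passed, which is the coagulation factor gene F5 alone. Both 4 weeks control pools lay above both 48 hours ones for 2 of 12, Fgfr1 1436551_at and Fgf7, against 16.3% of all, and below for Fgf10, against 16.4%. In transgenic pools 0 of 12 passed and 0 had an unadjusted p under 0.05 against 2.83% of all, of which 0% passed. There 1 member, Fgfr1 1424050_s_at, lay above without overlap, against 15.7%, and 3 lay below, Fgfr2, Fgf2 and Spry4, against 14.6%. The test of the change of the genotype difference between the times gave an adjusted p of 0.98 or higher for each of the 12, where 0% of all probe sets passed. Of the 12, 0 had an unadjusted p under 0.05 in that test, against 4.92% of all.

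The rest of the pathway was read from 4 lists with 1 probe set per gene, of which 70 genes were measured. In limma 0 of the 70 passed at 48 hours, at 4 weeks or over both times. At an unadjusted p under 0.05 there were 7 of 70 (10%) at 48 hours, where 4.67% of all probe sets were, 5 of 70 (7.14%) at 4 weeks, against 5.16%, and 3 of 70 (4.29%) over both times, against 4.83%.

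Of 19 other feedback and target genes measured, 10 had a positive log2 difference at 48 hours, with a median of 0.06, and 10 at 4 weeks, with a median of 0.03. Spry1, a further Sprouty inhibitor, had 559.5 and 649.2 in control pools and 763.4 and 992.3 in transgenic pools at 48 hours. At 4 weeks the signal was 472.5 and 515.7 in control pools and 657.3 and 931.5 in transgenic pools. All 4 transgenic pools were above all 4 control pools, as for 1.24% of all probe sets, and Spry1 was the only one of the 70 listed genes above in this way. Its log2 difference over both times was 0.57 (SE 0.19, 95% interval 0.15 to 0.99), with limma's unadjusted p = 0.0117 and adjusted p = 0.939.

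Among the ETS factors that FGF signalling is known to induce, Etv5 and Etv4 had differences of opposite sign at 48 hours, and neither passed. Etv5 had 341.7 and 251.2 in control pools and 694.4 and 454.4 in transgenic pools, which gave a log2 difference of 0.87 (SE 0.35) with adjusted p = 0.966 in limma. At 4 weeks its values of 685.3 and 426.1 in control enclosed those of 606.0 and 482.1 in transgenic pools. Etv4 was dim, with 121.9 and 114.5 in control pools and 45.3 and 13.7 in transgenic pools at 48 hours, which gave a log2 difference of −1.36 (SE 0.52). Fosl1, an AP-1 subunit induced through ERK, had 352.1 and 158.5 in control pools and 43.2 and 25.4 in transgenic pools at 48 hours. Its log2 difference there was −2.06 (SE 0.71), and it had 43.7 and 18.4 in control pools and 44.7 and 269.0 in transgenic pools at 4 weeks.

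Of 19 other receptors, coreceptors and binding proteins, 12 had a positive difference at 48 hours (median 0.08) and 11 at 4 weeks (median 0.16). Sdc4, a heparan sulfate proteoglycan, had 8159.8 and 5028 in control pools and 2584 and 4254 in transgenic pools at 48 hours, which gave a log2 difference of −0.94 (SE 0.41). It had 2173 and 3241 in control pools and 2927 and 7173 in transgenic pools at 4 weeks, where the difference was 0.78 (SE 0.41). The change between the times was 1.72 (SE 0.58), with limma's unadjusted p = 0.0129 and adjusted p = 0.98. Fgfr4, a receptor of the same family measured by a probe set (_x_at) that may cross-hybridise, had 203.2 and 229.3 in control pools and 58.2 and 85.0 in transgenic pools at 48 hours, which gave a log2 difference of −1.28 (SE 0.47). The signal at 4 weeks was 106.9 and 162.1 in control pools and 248.6 and 205.8 in transgenic pools. Fgfbp1, a carrier of secreted FGFs, lay below the median on all 8 arrays, with 5.9 and 5.3 in control pools and 58.3 and 35.2 in transgenic pools at 48 hours.

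Gpc3, a glypican of the cell surface, had 62.5 and 120.4 in control pools and 37.6 and 43.3 in transgenic pools at 48 hours. At 4 weeks it had 150.2 and 126.6 in control pools and 49.7 and 52.2 in transgenic pools. Its genotypes did not overlap over both times, and its log2 difference was −0.89 (SE 0.37), with adjusted p = 0.939 in limma. Flrt3, a membrane protein that promotes FGF signalling, had 4412 in transgenic 4 weeks pool 2 and between 290.3 and 655.0 on the other 7 arrays, and its log2 difference at 4 weeks was 1.85 (SE 0.72), with the genotypes overlapping.

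Of 18 other ligands, 2 lay above the median on all 8 arrays, and 9 had a positive difference at 48 hours and 7 at 4 weeks. One of these 2 was Fgf9, with 1145 and 972.6 in control pools and 1639 and 1530.4 in transgenic pools at 48 hours. Its signal at 4 weeks was 2950.3 and 1050.4 in control pools and 1766 and 457.1 in transgenic pools, so the pools of one group lay far apart. Fgf8 and Fgf14 were dim and had log2 differences of −1.02 and −1.23 at 4 weeks, with adjusted p = 0.945 and 0.963 in limma.

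Of 20 adaptors and kinases of the ERK cascade, 14 were matched to a probe set with 1 symbol, and all 14 lay above the median on all 8 arrays. At 48 hours 11 of the 14 differences were positive (median 0.14), and at 4 weeks 5 (median −0.09). Grb2, the adaptor that links receptors to RAS activation, had 1163 and 781.4 in control pools and 1382 and 1587 in transgenic pools at 4 weeks. Its log2 difference there was 0.62 (SE 0.25), with limma's unadjusted p = 0.0304 and adjusted p = 0.951, and its lowest array was control 4 weeks pool 2, the one with the actin ratio of 37.0-fold.

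**Figure D4:**
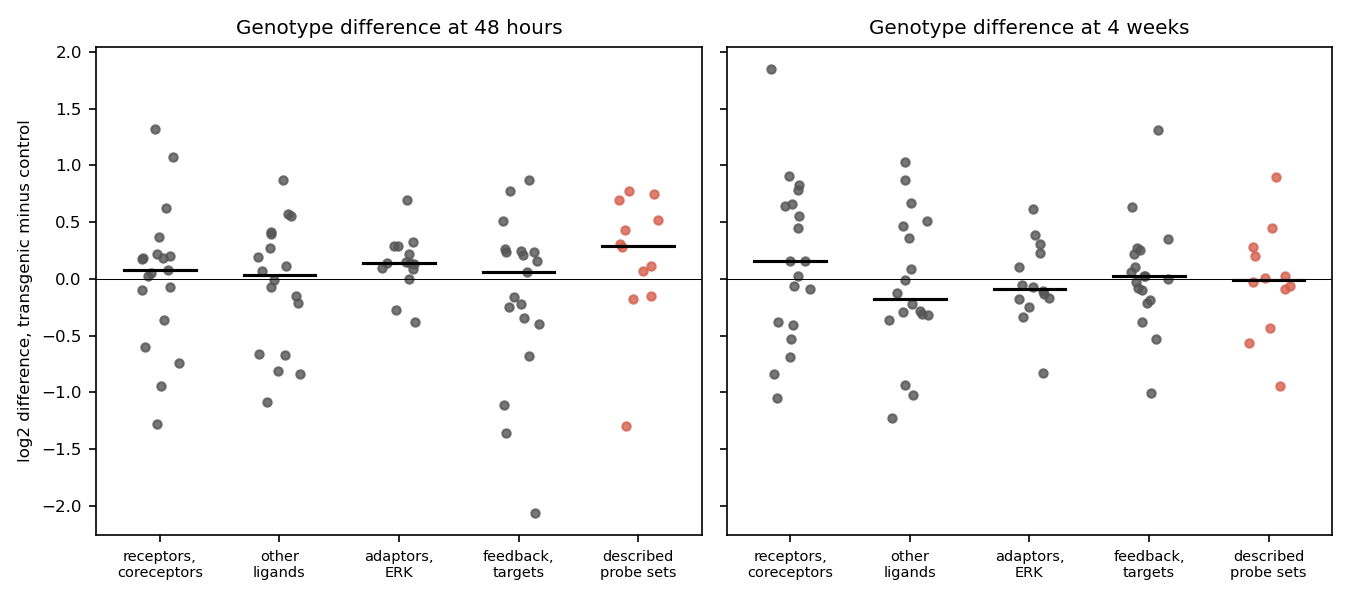
Log2 difference between transgenic and control pools at 48 hours and 4 weeks for the genes of 4 FGF pathway lists (grey points) and the 12 described probe sets (red points), with the median of each (line). The medians of the described probe sets are 0.29 at 48 hours and −0.01 at 4 weeks, and points lie on both sides of 0 in every column.

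Genes with a pattern most like a member were sought among 8614 genes above the median on all 8 arrays, by Pearson correlation of log2 values over the 8 arrays. The highest of so many values over 8 arrays are high by selection, and the arrays' RNA and scaling are shared. Closest to Dusp6 were Lztfl1 (0.995), Nptn (0.982) and Tmem63a (0.960). Closest to Fgfr1 1424050_s_at were Asah1 (0.975), Dock2 (0.971) and Blvra (0.963), and closest to Fgfr1 1436551_at were Htatsf1 (0.959), Mtfr1l (0.954) and Myo7a (0.951). Mtfr1l was also among the 3 closest to Fgf7, at 0.945. For Fgfr2 the closest was Ppp1r15a (0.973) and for Spry2 Trmt1l (0.968).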

How the data were processed

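RNA of 3 pooled mice per array was amplified with T7 polymerase and hybridised to Affymetrix mouse arrays, per the labels' protocols. The authors deposited 1 linear intensity value (the MAS5 signal) for each probe set; MAS5 is named in the submitters' processing notes, and the mean without the lowest and highest 2% was 499.8 to 500.4 on each array. For arrays, their number limits the precision.

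Probe sets with 1 symbol in GEO's platform annotation were used (34945; 932 had several symbols, 9160 none, and 64 were controls). Signals became log2(signal + 30.8), 30.8 being the 25th percentile of all values, with no filter on dim probe sets, so that each member was tested. limma 3.58.1 in R 4.3.3 fitted 4 group means, or genotype with time as a covariate, with a trended prior variance (4 residual degrees of freedom, median prior 6.98). The tests are two-sided, and limma's p-values were adjusted over all probe sets (Benjamini-Hochberg; threshold 0.05). Figures used Python 3.11.15 and matplotlib 3.10.9.

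The members and lists were chosen with earlier results of these data known. Listed genes were named from the 3 with the smallest p per list and genotype comparison, and not all are given. The fit was tested on simulated data. Beta-actin and Gapdh 3′ to 5′ ratios were compared between genotypes by an exact permutation test over 4 and 4 arrays (smallest p 0.0286), with p = 0.143 and 0.371. The mean log2 ratio of beta-actin was 3.88 in control and 3.06 in transgenic arrays, and that of Gapdh 3.10 and 2.90. With so few arrays these p-values do not show that the ratios are alike. Alternatives were the normalization, offset, filter, prior, weights, pool number, fewer arrays, actin ratio, other probe sets and leaving out each pool.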

Additional observations from a re-analysis of the deposited data

How the results depend on the processing

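No alternative brought a described probe set past the threshold. For counts over all probe sets, the 4 arrays compared alone gave 1 at 48 hours, 1 at 4 weeks and 0 between the times in control pools. The last count was also 0 with an offset at the median, a filter at the 75th percentile, no trend or array weights, and 5 with the actin ratio. Leaving out 1 pool gave 0 to 1 at 48 hours, 0 to 2 at 4 weeks, 0 to 1 over both times, 0 to 1 for the change, 0 to 5 between times in control and 0 to 2 in transgenic pools. Over all probe sets, pools of the same number hardly deviated together (correlations from −0.04 to 0.07). Those correlations cannot show whether single genes follow the pool number. Fgf1 1450869_at was higher in pool 2 than in pool 1 of every group. The adipocyte gene Fabp4 ran from 7002 to 9475 in the pools numbered 1 and from 16442 to 27359 in those numbered 2. How many genes do so was not counted. With pool number as a replicate block, 2 probe sets passed at 4 weeks and 4 between times in control pools, 0 in the other comparisons, and no member passed.

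Signs turned in 28 of 339 member values under other settings, and the cause was not tested. The filters, the prior, the pool number and the 4 arrays compared alone leave a difference as it was. The values under these settings could not turn and are part of the 339. At 48 hours other probe sets gave −0.16 for Fgfr3 (1425796_a_at), −0.82 for Fgfr2 (1443211_at), −0.32 for Fgf7 (1422243_at) and −0.0041, −0.31 and −0.77 for Spry4 (1422020_at, 1422021_at, 1445669_at). At 4 weeks they gave −1.04 for Spry2 (1421656_at) and 0.26 and 0.32 for Spry4 (1422020_at, 1445669_at). Over both times they gave −0.43 for Fgfr3, −0.16 for Fgfr2, −0.44 for Fgf7 and 0.13 for Spry4 (1422020_at). With the actin ratio as covariate, Fgfr1 1424050_s_at was −0.26 at 48 hours, −0.46 at 4 weeks and −0.35 over both. Fgfr1 1425911_a_at was then −0.0062 at 4 weeks and −0.33 over both, Fgf1 0.089, 0.57 and 0.29, and Spry4 0.27 over both. With quantile normalization, Fgfr3 was 0.011 and Fgf1 0.058 at 4 weeks, and Spry4 0.0034, Fgf2 0.040 and Fgf1 0.011 over both. Fgf1 at 4 weeks was 0.0072 with an offset of 1.

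Leaving out 1 pool turned 31 of 288 values. Leaving out a 4 weeks pool cannot move a difference at 48 hours, or the reverse, so part of the 288 could not turn. At 48 hours the ranges were −0.16 to 1.54 for Fgfr3, −0.45 to 0.16 for Fgfr1 1425911_a_at, −0.25 to 0.48 for Fgfr2, −0.13 to 0.69 for Spry2 and −0.55 to 0.19 for Fgf1. At 4 weeks they were −0.29 to 0.17 for Fgfr3, −0.53 to 1.10 for Fgfr1 1424050_s_at, −0.067 to 1.86 for 1425911_a_at, −0.17 to 0.19 for 1436551_at, −0.18 to 0.22 for Fgfr2, −0.047 to 0.45 for Spry2, −0.21 to 0.034 for Fgf7 and −0.56 to 0.51 for Fgf1. Over both times they were −0.10 to 0.58 for Fgfr3, −0.17 to 0.48 for Fgfr1 1424050_s_at, −0.12 to 0.65 for 1425911_a_at, −0.087 to 0.21 for Fgfr2, −0.54 to 0.24 for Spry4, −0.19 to 0.16 for Fgf2 and −0.33 to 0.10 for Fgf1. Fgf10 and Dusp6 kept their sign under every alternative run. For Fgf10 the genotypes did not overlap at either time, so a pool left out or another offset could not turn its sign. The same holds for Dusp6 at 48 hours. Each of these genes has only 1 probe set, so no other probe set could be compared. With the actin ratio, Dusp6 was 0.60 at 48 hours and 0.11 at 4 weeks. Signals below the array's median limit what Fgf10, Fgf2, Fgfr3, Fgf1 and Spry4 can show.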
